A study of Homo sapiens with 13 samples.

Results

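The comparison is between 2 of the 13 libraries of a bulk RNA sequencing series on human embryonic stem cells. It sets uninduced cells on day 5 of culture against cells of the same line, in another well, on day 0. Both come from hES-N1, a stable line made from H9 that carries human NEUROG2 under a doxycycline switch, and neither received doxycycline or added FGF2 treatment. The series uses doxycycline to turn such cells into neurons and then asks what FGF2 does to them. Per the labels, each library is the RNA of a single culture well. The day-5 cells grew on matrigel, for 2 days in E8 medium and then for 3 days in 3N medium, so time, medium and culture well all change together and cannot be told apart. The medium of the day-0 well and the make-up of 3N are not given in the sources used here, and whether hES-N1 is a single clone is not stated. The 3 other libraries of the same sequencing run are given beside the members where they help: uninduced cells on day 11 (2 days E8, 9 days 3N), and cells kept on 1 µg/ml doxycycline to day 5 and day 11. With 1 library a side there is no replicate and no test, and every difference below is one between 2 libraries.

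Embryonic stem cells hold their state through a small set of transcription factors, of which POU5F1, SOX2 and NANOG are the best known. In culture they depend on FGF2, which signals through FGF receptors and the ERK kinases, and on activin or TGF-beta signals, and both are supplied by E8. They run on rapid glycolysis, and when FGF and activin signals are withdrawn they leave pluripotency and by default take a neural path.

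The day-5 library still had a stem cell profile by its markers. All 7 pluripotency markers checked were above 10 CPM (counts scaled to library size by TMM) in both libraries, with summed levels of 4199 CPM on day 0 and 4016 CPM on day 5, against 1585 CPM on day 11. Most of the day-11 sum was LIN28A, at 1197 CPM on day 0, 849 on day 5 and 1196 on day 11. TDGF1, by contrast, was at 495, 679 and 6.41 CPM. The sums therefore hide members that moved in opposite directions. POU5F1, the core pluripotency factor and a marker given with the comparison, was at 1000.4 CPM on day 0, 654 on day 5 and 38.9 on day 11. FGF2, the other marker, was at 114, 338 and 35.7 CPM. Both were therefore present on both days, POU5F1 lower and FGF2 higher on day 5. Of 6 neural progenitor markers, none reached 10 CPM on either day (summed levels 5.11 and 5.77 CPM, against 464 CPM on day 11), and HES5 had no count in either library. The 3 neural crest, 5 mesendoderm and 2 endothelial or blood markers checked summed to under 2 CPM per class on both days, with SOX10 and SOX17 at 0. Some genes of the longer lists used below were expressed. KDR, in the mesendoderm and endothelial lists, was at 136 CPM on day 0 and 210 on day 5. TEK, of the endothelial list, was at 36.6 and 31.02 CPM. In the neural crest list ERBB3 was at 74.97 and 98.6 CPM and NGFR at 34.9 and 40.8 CPM. The 6 neuron markers summed to 81.1 and 43.6 CPM. Among 5 trophoblast or amnion markers the summed levels were 23.8 and 29.96 CPM, nearly all from GABRP, with CGA at 0. Of 5 fibroblast or feeder markers the summed level went from 222 to 899 CPM, but nearly all of it was COL1A1 and COL1A2, while COL3A1 had 1 count on day 0 and 0 on day 5, and LUM and DCN had 0 in both. In bulk RNA, fewer cells of a type and less RNA per cell cannot be told apart.

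Induction was checked by NEUROG2 and the EGFP reporter. Without doxycycline NEUROG2 was at 0.456 CPM (18 counts) on day 0, 1.34 CPM (43 counts) on day 5 and 6.26 CPM on day 11. In the doxycycline library of day 5 it was at 1564 CPM. These counts are those of the gene's own entry on chromosome 4, so transgene and endogenous transcripts cannot be told apart. The EGFP reporter was at 35.9 CPM on day 0, 87.2 on day 5 and 25.8 on day 11 without doxycycline, against 1290.4 CPM on day 5 with it. The uninduced libraries thus held EGFP reads in all 3 cases, and most on day 5.

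The libraries held 37474477 counts on day 0 and 32640698 on day 5, and a count of 3 corresponds to 0.0760 and 0.0935 CPM. As a yardstick for libraries of the same kind, the 4 groups of the FGF2 experiment have 2 libraries each, from another run and from induced cells. In those pairs 2 to 4 genes of 10204 to 10347 differed 2-fold, and the standard deviation of the log2 ratio was 0.11 to 0.24. Between day 0 and day 5 it was 0.64. The yardstick covers other cells and cannot stand in for a replicate of these wells.

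Position on chromosome 20 separated the day-5 library from all others of the run, and this touches several results below. Among protein-coding genes at 10 CPM or more in either library, the 89 genes of the short arm (up to NANP, 25612935 to 25624175 on GRCh38) had a median log2 ratio of day 5 to day 0 of -1.13. Of them 83 were lower on day 5 and 53 were at least 2-fold lower. The 208 genes of the long arm (from HM13, 31514410 to 31577923) had a median of 0.61, with 185 higher, 50 at least 2-fold higher and 0 at least 2-fold lower. The medians of the other 22 chromosomes ran from -0.20 (chromosome 4) to 0.13 (chromosome 19). Against day 0 the short and the long arm had medians of -0.05 and -0.08 on day 11 without doxycycline, 0.31 and 0.11 on day 5 with it, and 0.23 and -0.11 on day 11 with it. All these ratios share the day-0 library, and the step between the arms appears in the day-5 uninduced library. In the pairs of the FGF2 experiment the arm medians lay between -0.01 and 0.06. In windows of 20 neighbouring protein-coding genes, medians ran from -1.22 to 1.07 on chromosome 20. Elsewhere they ran from -0.67 (chromosome 2) to 0.99 (chromosome X), so the upper ends were close. As background, gains of long-arm sequence of chromosome 20 are known to recur in cultured human pluripotent stem cells. DNA was not measured here and copy number was not tested. The arm is named below for each gene that lies on chromosome 20.

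**Figure D1:**
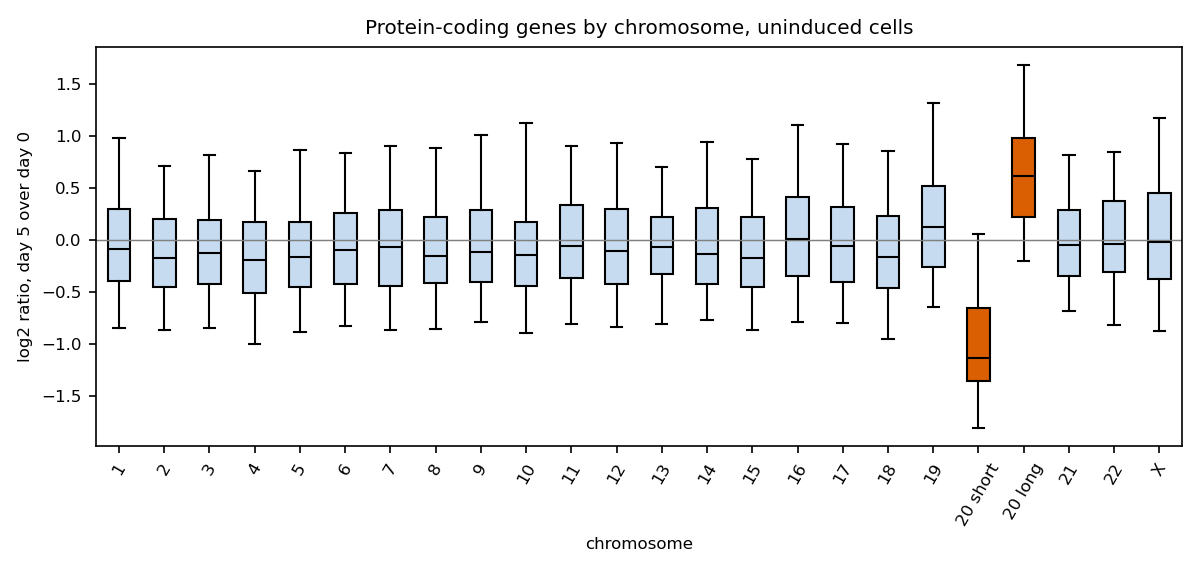
Log2 ratio of day 5 to day 0 (y axis) for protein-coding genes at 10 CPM or more in either library, by chromosome (x axis), chromosome 20 split into its arms (orange); boxes span the quartiles, lines are medians and whiskers the 5th and 95th percentiles. The short arm of 20 lies at a median of -1.13 and the long arm at 0.61, while the other 22 chromosomes lie between -0.20 and 0.13.

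Single genes of chromosome 20 show the size of that step. XRN2, a nuclear exoribonuclease of the short arm, was at 209 CPM on day 0, 51.9 on day 5 and 181 on day 11, and at 171 and 159 CPM with doxycycline. The day-5 uninduced library was the lowest of the 5, 4.04-fold below day 0. DTD1, a tRNA editing enzyme of the short arm, went from 75.9 to 12.9 CPM and was at 60.7 CPM on day 11. PCNA, the sliding clamp of DNA replication on the short arm, was at 206, 73.9 and 141 CPM. JAG1, a Notch ligand of the same arm, was close to its day-0 level, at 58.5 and 48.7 CPM. On the long arm, LAMA5, a laminin chain, was at 166 CPM on day 0, 873 on day 5 and 178 on day 11. DNMT3B, the de novo DNA methyltransferase typical of stem cells, was at 848, 1994 and 320 CPM. BCL2L1, an inhibitor of apoptosis, was at 30.3, 50.0 and 28.9 CPM, and TPX2, a spindle protein, at 215 and 214 CPM on day 0 and day 5. The genes named here were chosen to show the range, and 23 of the 208 long-arm genes were lower on day 5.

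Of 11916 genes at 10 CPM or more in either library, 100 were higher on day 5 by 4-fold or more (0.839%) and 25 were lower by as much (0.21%), on the scale of log2 of CPM plus 1. In both directions together this was 125 genes (1.05%). With a 2-fold line 670 genes (5.62%) were higher, 516 (4.33%) lower, and 42% of genes lay above and 58% below a ratio of 1. Counts of higher and lower list members given below are to be read beside these 42% and 58%. Without chromosome 20 the counts were 90 and 23 at 4-fold and 614 and 461 at 2-fold. Of the 100 higher genes 70 were protein coding, 18 were lincRNA genes and 10 lay on the long arm of 20. Of the 25 lower genes 13 were protein coding, 10 were pseudogenes and 2 lay on the short arm of 20. Among all 11916 measured genes 10429 were protein coding, 137 were lincRNA genes and 1170 were pseudogenes. Of the 11916, 230 lay on the long arm of 20 and 99 on the short arm. The median over all genes was -0.12 with TMM scaling and -0.22 with library totals, so a small difference can change side with the scaling. With library totals the split at 4-fold was 80 higher and 38 lower (67.8% higher, against 80%), and at 2-fold 546 and 733 (42.7% higher, against 56.5%). Next to the 4-fold line lay SEMA3B (log2 ratio 2.00) and APLN (-2.04) just inside, and LAYN (1.99) and XRN2 (-1.99) just outside.

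Transcript composition and gene type also moved with the ratio. From the third to the tenth decile of GC content the day-5 median log2 ratio ran from -0.27 to 0.26, and that of day 11 from -0.05 to -0.32. Over transcript length, the shortest decile had medians of -0.41 (day 5) and -0.20 (day 11), and the longest 0.06 and 0.08. The 137 lincRNA genes had a median of 0.61 and the 989 processed pseudogenes one of -0.58, against -0.08 for protein-coding genes. The part of GC content and length in the results was not tested. Subtracting the median of each gene's GC decile, an alternative added after seeing the data, leaves the list medians given below where a second value says so.

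**Figure D2:**
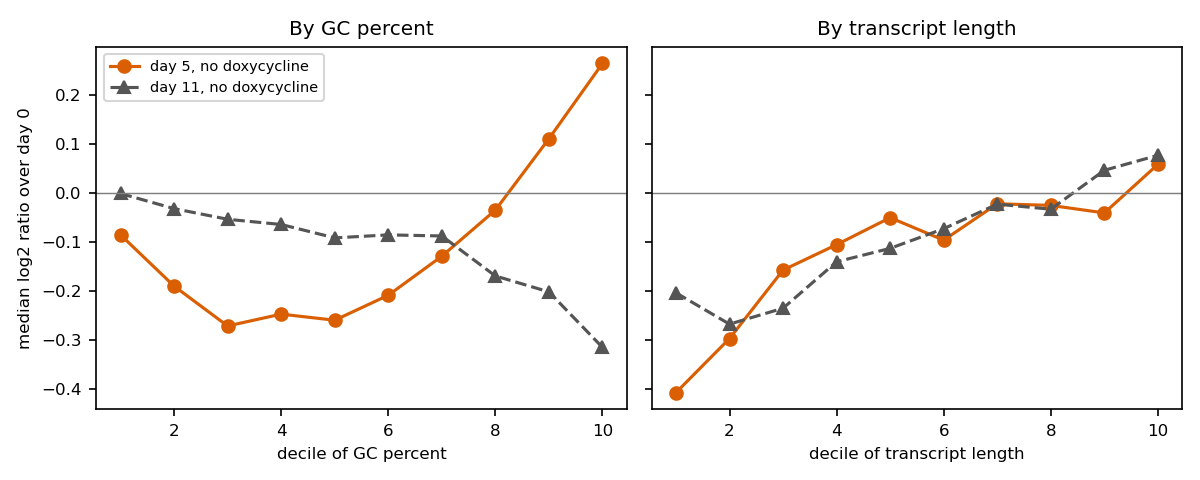
Median log2 ratio over day 0 (y axis) in deciles of GC content (left) and of transcript length (right) for the uninduced libraries of day 5 and day 11; each point is about 1190 genes. In the highest GC decile the median is 0.26 on day 5 and -0.32 on day 11, while the length trends run the same way.

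The highest ratio belonged to PEG3, a maternally imprinted zinc finger gene on chromosome 19. It had 1 count on day 0 (0.0253 CPM) and stood at 70.0 CPM on day 5, and was at 0.0301 CPM on day 11 and at 0.169 and 0.0303 CPM with doxycycline. Of the 5 libraries, PEG3 was above 1 CPM in the uninduced day-5 library alone, and with 1 count on day 0 its ratio has a counting interval of 495 to 1.09e+05. TRPC6, a cation channel, was at 0.684 CPM on day 0, 27.7 on day 5 and 1.17 on day 11, and CYP4F22, a fatty acid hydroxylase, had 0 counts on day 0 and was at 12.2 CPM on day 5, at least 161-fold higher against a floor of 3 counts. CYP4F22 was also at 0 on day 11. NNAT, an imprinted gene of neuronal membranes on the long arm of 20, was at 1.54 and 25.8 CPM, and the ubiquitin ligase gene NEURL1 at 0.557 and 14.9 CPM.

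A second set of high ratios fell on genes with a level already on day 0. PRODH, the mitochondrial enzyme that starts proline breakdown, was at 29.8 CPM on day 0, 238 on day 5 and 23.5 on day 11. COL1A1, the main chain of type I collagen, was at 102, 726 and 57.0 CPM. FAM20A, a partner of the secretory kinase FAM20C, was at 5.24, 53.6 and 2.59 CPM. TMEM64 was at 46.6, 341 and 19.5 CPM, and SERPINB9, an inhibitor of granzyme B, at 30.5, 194 and 3.22 CPM. In each of these 5 genes day 5 was above both day 0 and day 11. SOX15, LDHD (a lactate dehydrogenase of mitochondria), ADRA2A (an adrenergic receptor), MUC4, TNFSF9, GADD45G (a stress sensor) and RNASE1 were among the 20 highest too, with log2 ratios from 2.66 to 3.11. PROCR, a receptor of protein C on the long arm of 20, was at 9.98 and 67.8 CPM.

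The lowest ratio was that of KLHL4, an X-linked kelch protein, at 41.9 CPM on day 0, 1.22 on day 5 and 1.17 on day 11, and at 117 CPM on day 5 with doxycycline. Both later uninduced libraries were under 2 CPM, and the 3 others at 41.9 CPM or above. FERMT1, an integrin activator of the short arm of 20, went from 15.9 to 1.496 CPM. CHCHD2, a mitochondrial protein, went from 81.2 to 12.8 CPM, with 50.5 CPM on day 11, and its pseudogene had a like log2 ratio (-2.62 against -2.57). ODC1, the rate-limiting enzyme of polyamine synthesis and a known MYC target, was at 95.1, 17.8 and 534 CPM on days 0, 5 and 11. CHGA, a granule protein of neuroendocrine cells, went from 66.6 to 11.3 CPM, NTS, a neuropeptide, from 41.0 to 8.17 CPM, GRIA4, a glutamate receptor subunit, from 32.4 to 7.73 CPM, and APLN, a peptide hormone, from 23.3 to 4.93 CPM. SORBS2, SLC8A1, HDAC9, ADAMTS8, TSPYL5 and SMIM3 had log2 ratios between -2.58 and -1.94.

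**Figure D3:**
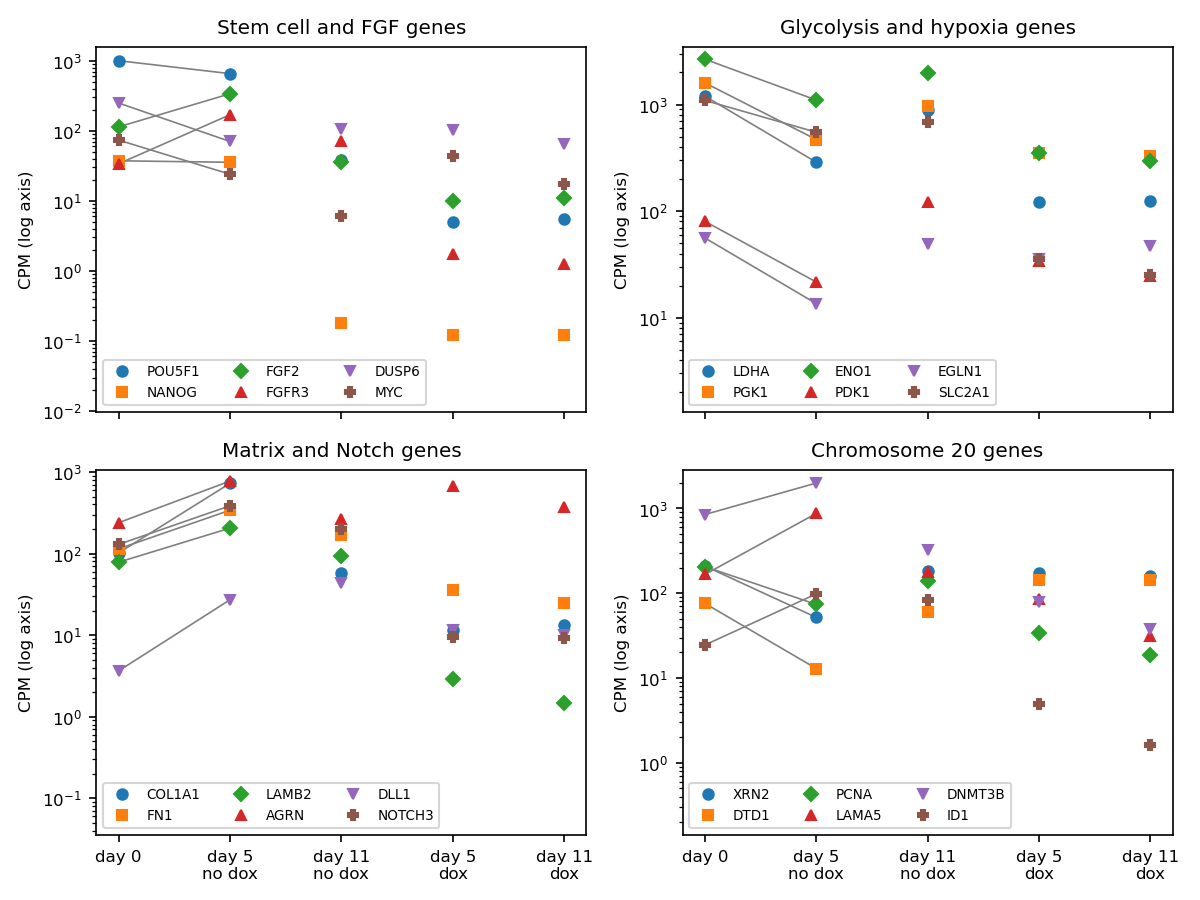
CPM (log axis) of 24 genes in the 5 libraries of the run (x axis), 1 point per gene and library; grey lines join day 0 to the uninduced day 5. LDHA, PGK1 and EGLN1 are lower on day 5 than on day 0 and on day 11, and the short-arm genes XRN2, DTD1 and PCNA are low on day 5 against the long-arm genes LAMA5, DNMT3B and ID1.

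Genes of FGF reception were higher on day 5 and genes downstream of ERK were mostly lower. Among 9 measured FGF ligand and receptor genes of 30 listed, 7 were higher and 2 lower, with a median log2 ratio of 0.46 against -0.12 over all genes (0.22 after GC subtraction). FGF2 was 2.97-fold higher (counting interval 2.87 to 3.08). FGFR3 was at 33.8 CPM on day 0, 169 on day 5 and 70.7 on day 11, 5.01-fold higher on day 5. The other receptors were higher by less. FGFR1 was at 669 CPM on day 0 against 1047 CPM on day 5. For FGFR2 the levels were 120 and 199 CPM, and for FGFR4 86.9 and 112 CPM. All 4 receptors were above their day-0 level on day 5 and FGF2 was too.

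Of 22 measured FGF and ERK feedback targets 16 were lower and 6 higher, 5 lower by 2-fold or more (4.33% of all genes) and 1 higher by as much (5.62%), with a median of -0.46. DUSP6, the phosphatase that switches off ERK, was at 248.8 CPM on day 0, 70.3 on day 5 and 106 on day 11, 3.54-fold lower on day 5. MYC, a growth factor target that drives ribosome production, was at 73.5, 23.9 and 6.08 CPM. IER3, an early ERK target, was at 29.6, 10.3 and 2.95 CPM, and ETV1, a transcription factor of the ETS family, at 79.3, 36.3 and 33.6 CPM. SPRY4 and ETV4, common readouts of FGF signalling, stayed within 1.5-fold on day 5, at 207 and 160 CPM and at 135 and 102 CPM, and were at 26.7 and 23.3 CPM on day 11. EPHA2, an ephrin receptor, was the member 2-fold higher, at 44.1 and 90.2 CPM. Its log2 ratio of 1.02 fell under the 2-fold line in 4 alternatives, of which the lowest was 0.65 with the normalized values the authors deposited. Among the 5 lower members, DUSP4 (log2 ratio -1.03) came inside the 2-fold line in 3 alternatives and ETV1 (-1.11) in 1. Other annotated genes cover 40.5% of DUSP6 exons and 26.5% of IER3 exons, and unstranded reads there cannot be assigned to either gene.

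Glycolysis genes were lower as a group. Of 25 measured, 22 were lower and 3 higher, 9 at least 2-fold lower (516 of all 11916 genes, 4.33%), and the median was -0.90. LDHA, which turns pyruvate into lactate, was at 1198 CPM on day 0, 287 on day 5 and 886 on day 11, 4.17-fold lower on day 5. PGK1, the first ATP-forming enzyme of the pathway, was at 1597, 469 and 972 CPM, and ENO1, the main enolase, at 2661, 1101 and 1965 CPM. PGAM1 was at 162, 54.7 and 122 CPM, and SLC16A3, an exporter of lactate, at 104, 34.7 and 69.8 CPM. PDK1, the kinase that closes entry of pyruvate into mitochondria, was at 80.2, 21.6 and 122 CPM. In all 6 genes day 5 was the lowest of the 3 uninduced libraries. ENO2, the neuronal enolase, was 2.03-fold higher, at 220 and 448 CPM. LDHA has 6 measured pseudogenes with log2 ratios of -2.49 to -1.82, and reads of the gene and its copies may have been shared.

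Hypoxia response genes, which HIF switches on when oxygen is low, had 23 of 26 members lower and 3 higher. At the 2-fold line 7 were lower (4.33% of all genes) and 0 higher (5.62%). The median was -0.65 (-0.61 after GC subtraction). Some genes stand in both lists. EGLN1, the oxygen sensor that marks HIF for decay, was at 56.0 CPM on day 0, 13.6 on day 5 and 49.4 on day 11. BNIP3, a mitophagy receptor, was at 178, 58.4 and 185 CPM, and HILPDA, a lipid droplet protein, at 34.7, 12.1 and 40.0 CPM. The glucose transporter SLC2A1 was at 1094, 549.7 and 688 CPM, and STC1, a secreted hormone, at 107, 47.2 and 146 CPM. HIF1A, the oxygen-regulated factor itself, was at 190, 133 and 203 CPM, and VEGFA, the vascular growth factor, at 88.3 and 78.5 CPM. The members named here thus ranged from near 4-fold lower to little difference.

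Promoter sequence is shown for 4 of the 6 lowest glycolysis and hypoxia members because HIF binds a core of letters ACGTG, and the E-box CACGTG, bound by MYC and other factors, contains it. The windows run from 250 bases upstream to the base before the transcript start, in the sense of the gene, with ACGTG on either strand in capitals (RefSeq, GRCh38.p14).
LDHA, chr11:18394313-18394562, plus strand: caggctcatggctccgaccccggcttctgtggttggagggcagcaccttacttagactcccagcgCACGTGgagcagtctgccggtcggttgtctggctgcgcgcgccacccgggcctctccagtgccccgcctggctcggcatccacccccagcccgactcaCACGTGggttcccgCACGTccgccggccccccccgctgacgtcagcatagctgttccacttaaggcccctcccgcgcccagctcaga
PGK1, chrX:78103998-78104247, plus strand: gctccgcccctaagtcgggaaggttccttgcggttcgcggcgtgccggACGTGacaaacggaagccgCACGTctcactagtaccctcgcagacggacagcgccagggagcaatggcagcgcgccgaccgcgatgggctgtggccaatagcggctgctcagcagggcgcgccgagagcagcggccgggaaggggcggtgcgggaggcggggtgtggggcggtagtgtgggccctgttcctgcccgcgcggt
BNIP3, chr10:131981924-131982173, minus strand: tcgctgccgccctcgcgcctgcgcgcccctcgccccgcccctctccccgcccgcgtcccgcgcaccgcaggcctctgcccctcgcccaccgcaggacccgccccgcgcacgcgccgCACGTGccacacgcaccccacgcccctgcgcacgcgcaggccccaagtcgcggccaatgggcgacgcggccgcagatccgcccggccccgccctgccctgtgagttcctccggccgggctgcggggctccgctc
EGLN1, chr1:231422288-231422537, minus strand: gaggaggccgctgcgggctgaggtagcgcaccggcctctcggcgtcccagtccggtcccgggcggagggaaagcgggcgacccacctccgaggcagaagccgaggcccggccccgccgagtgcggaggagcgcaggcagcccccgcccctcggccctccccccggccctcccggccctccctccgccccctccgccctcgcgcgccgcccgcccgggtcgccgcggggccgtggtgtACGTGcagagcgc

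Counted on both strands, ACGTG stands 5 times in the LDHA window, with 2 of these sites full CACGTG (each of which counts on both strands), 2 times each in PGK1 and BNIP3 and 1 time in EGLN1. The BNIP3 matches are both strands of a single CACGTG, and the second LDHA window of the table has no match. Of the 2 genes not shown, PDK1 has 2 windows and SLC16A3 has 5, and in each gene 1 window holds ACGTG and the others do not. In the RefSeq table of windows from 250 bases before to 50 after a start, 21.4% of 35116 windows hold ACGTG and 7.26% hold CACGTG. The shares were 38.8% of 49 windows of the 23 matched glycolysis genes, 48% of 25 windows of 19 matched hypoxia genes and 43.5% of 23 windows of 18 matched ribosome biogenesis and MYC targets. Among basement membrane genes, which were higher on day 5, it was 8.70% of 23 windows, and among FGF and ERK feedback targets 20.8% of 24. Cholesterol efflux and LXR targets, of which 8 of 11 were higher on day 5, had it in 26.7% of 15 windows of 9 matched genes. The share was thus below that of all windows in 1 list of higher genes and above it in another. These are descriptions of letters in a window.

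Genes of the extracellular matrix were higher on day 5. Of 19 measured basement membrane genes 16 were higher and 3 lower, 6 at least 2-fold higher and 0 at least 2-fold lower (5.62% and 4.33% of all genes), with a median of 0.53, 0.51 without chromosome 20 and 0.66 after GC subtraction. AGRN, the heparan sulphate proteoglycan agrin, was at 239 CPM on day 0, 774 on day 5 and 268 on day 11. LAMB2, a laminin chain, was at 78.3, 205 and 94.2 CPM. NID1, which links laminin to collagen, was at 96.0, 216 and 150 CPM, and the type IV collagen chains COL4A1 and COL4A2 at 125 and 260 and at 142 and 307 CPM. LAMA1 was near its day-0 level, at 123 and 146 CPM. LAMA5 lies on the long arm of 20 and was the member with the highest ratio.

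Of 14 measured mesenchyme and matrix genes 11 were higher, 4 of them at least 2-fold (5.62% of all genes), and the median was 0.83. Besides COL1A1, FN1, the fibronectin gene, was at 114 CPM on day 0, 340 on day 5 and 169 on day 11, and COL5A1 at 26.1, 83.1 and 49.4 CPM. SPARC, a collagen chaperone, was at 385, 684 and 243 CPM and VCAN, the proteoglycan versican, at 360, 660 and 167 CPM. COL5A2 went the other way, from 42.0 to 20.1 CPM. Epithelial genes moved little, with 12 of 25 higher and 13 lower and a median of -0.02. CDH1, the epithelial cadherin, was at 267 and 341 CPM and EPCAM at 243 and 363 CPM.

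**Figure D4:**
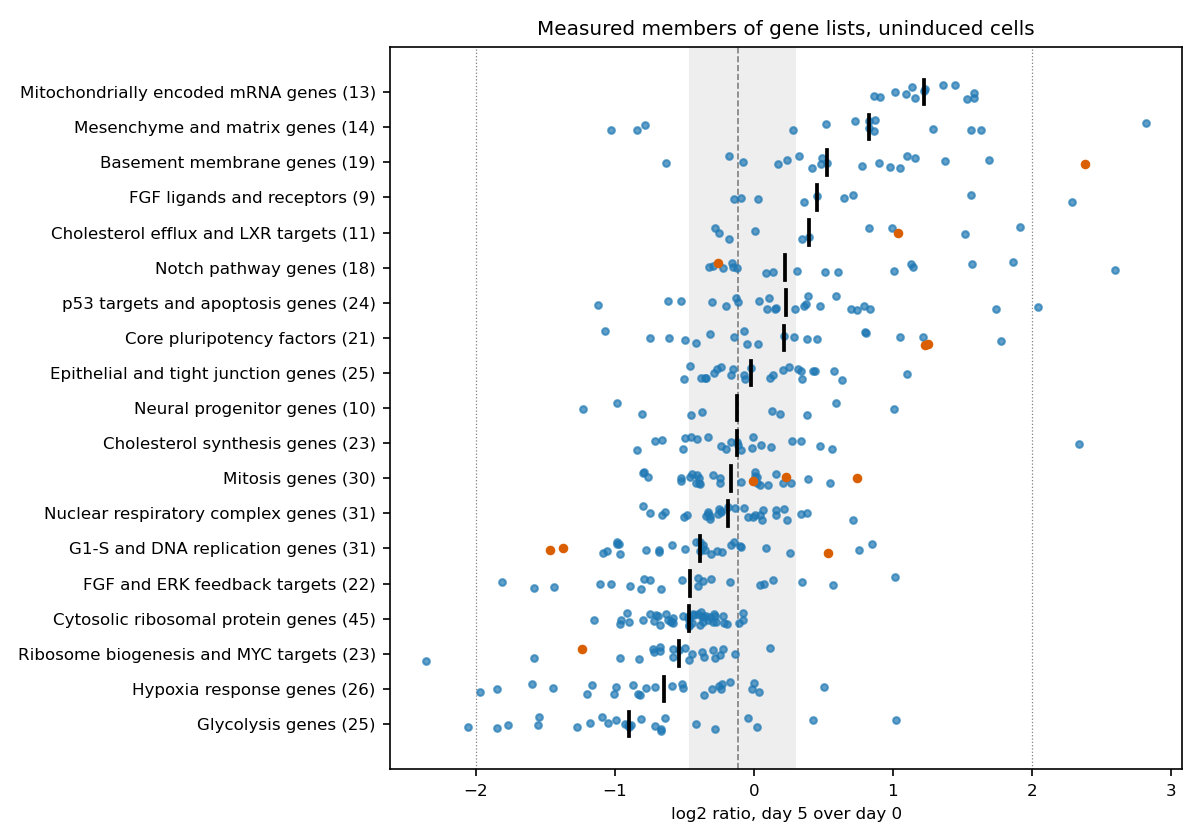
Log2 ratio of day 5 to day 0 (x axis) for each measured member of 19 gene lists (y axis, number of members in brackets); black bars are medians, orange points are genes of chromosome 20, the grey band spans the quartiles of all 11916 genes and dotted lines mark 4-fold. Mitochondrial mRNAs (median 1.22) and matrix genes lie to the right of the band, glycolysis genes (-0.90) to its left, and neural progenitor and epithelial lists around its middle.

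Messenger RNAs of the mitochondrial genome, which encode subunits of the respiratory chain, were all higher on day 5. All 13 were higher and 11 at least 2-fold (5.62% of all genes), with a median of 1.22. MT-CO2, a subunit of cytochrome oxidase, was at 5772 CPM on day 0, 17264 on day 5 and 2552 on day 11, 2.99-fold higher on day 5. MT-CO1 was at 11598, 27032 and 7592 CPM, and MT-ND1, a complex I subunit with the lowest ratio of the 13, at 1975, 3603 and 1244 CPM. Day 5 was above and day 11 below day 0 for each gene. The share of all counts on mitochondrial genes was 7.17% on day 0, 15.0% on day 5 and 4.40% on day 11. Of 31 nuclear genes of the respiratory complexes 11 were higher and 20 lower (42% and 58% of all genes), with a median of -0.19, and 0.02 after GC subtraction. ATP5B, a subunit of ATP synthase, was at 886 and 527 CPM, and COX7C at 321 and 405 CPM. TFAM, which packages and transcribes mitochondrial DNA, was at 104 and 57.3 CPM. Nuclear copies of mitochondrial genes held counts of the same size (MTCO1P12 had 93.7% as many counts as MT-CO1 on day 0). Whether the same reads were counted for both was not tested.

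**Figure D5:**
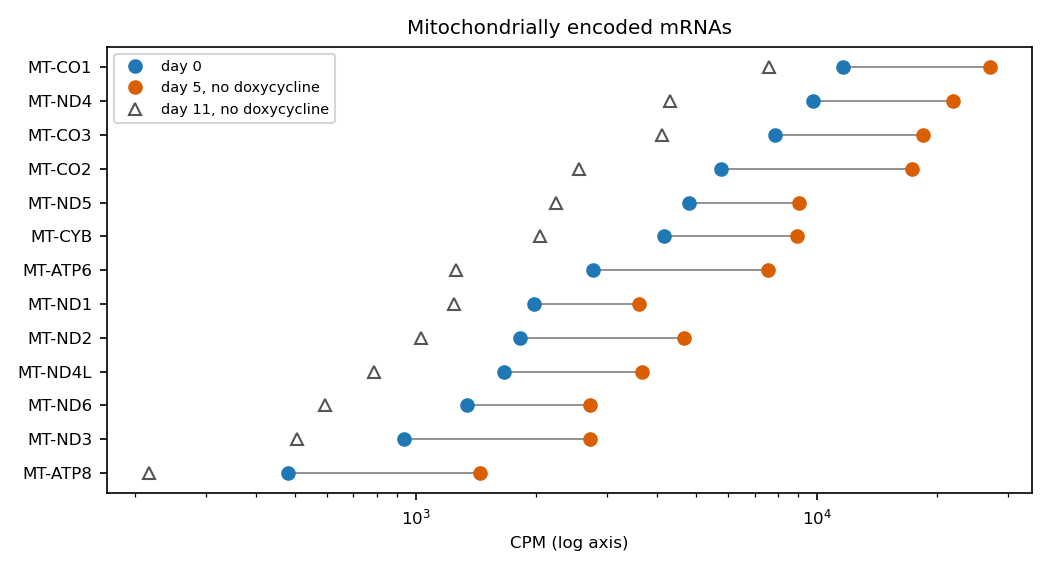
CPM (log axis) of the 13 mitochondrially encoded mRNAs (y axis) in the uninduced libraries of day 0, day 5 and day 11. In each row day 5 (orange) lies above day 0 (blue) and day 11 (open triangle) lies below it.

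Genes of growth and DNA replication were lower. All 45 measured cytosolic ribosomal protein genes lay below day 0, 1 of them at least 2-fold (4.33% of all genes). Their median was -0.46 (-0.29 after GC subtraction). RPL10A went from 633 to 284 CPM and RPLP0 from 1973 to 1174 CPM, with 1898 CPM on day 11. These genes have many pseudogenes that can take their reads, and their transcripts are short. Of 23 ribosome biogenesis and MYC targets 22 were lower (58% of all genes), with a median of -0.54. NCL and NPM1, proteins of the nucleolus, were at 1066 and 712 CPM and at 1140 and 810 CPM, and FBL, a methylase of ribosomal RNA, at 317 and 191 CPM. NOP56 lies on the short arm of 20 and was at 284 and 120 CPM.

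Of 31 G1-S and DNA replication genes 26 were lower, 4 at least 2-fold (4.33% of all genes), with a median of -0.39, -0.38 without chromosome 20 and -0.26 after GC subtraction. RRM1 and RRM2, the subunits of ribonucleotide reductase, were at 147 and 70.5 CPM and at 99.8 and 46.5 CPM, and MCM3, part of the replicative helicase, at 415 and 276 CPM. PCNA and GINS1, the 2 members with the lowest ratios, lie on the short arm of 20. Of 30 mitosis genes 13 were higher, 17 lower and 0 past 2-fold, with a median of -0.17, and 0.06 after GC subtraction. This was near the split of all genes, of which 42% were higher and 58% lower. MKI67 was at 338 and 392 CPM and TOP2A at 560 and 407 CPM. CDKN1A, the p53 target p21 that halts the cycle, was at 51.0 CPM on day 0, 173 on day 5 and 24.97 on day 11, and CDKN1C, an imprinted inhibitor of the cycle, at 11.0, 31.2 and 28.8 CPM. Of 24 p53 targets and apoptosis genes 17 were higher, 2 at least 2-fold (5.62% of all genes), with a median of 0.23. GDF15, a secreted stress factor, was at 11.7, 51.1 and 1.08 CPM, and MDM2, the ligase that degrades p53, at 61.0, 103 and 29.9 CPM.

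The core pluripotency list was mixed. Of 21 measured members 12 were higher and 9 lower, 5 higher by 2-fold or more (5.62% of all genes) and 1 lower by as much (4.33%), with a median of 0.22, or 0.03 without its 2 genes on the long arm of 20, DNMT3B and SALL4. The noncoding RNA ESRG was at 624 CPM on day 0, 1297 on day 5 and 17.1 on day 11. PODXL, a surface sialomucin, was at 1994, 3471 and 158 CPM. NANOG was at 37.3, 35.5 and 0.181 CPM, and SOX2, shared with neural progenitors, at 191, 249 and 306 CPM. POU5F1 (1.53-fold), ZFP42 (142 and 84.1 CPM) and LIN28B (135 and 64.1 CPM) were lower. Of the members given here, SOX2, SALL4 and LIN28B were above their day-0 level on day 11, and the others were at their lowest of the 3 uninduced libraries there.

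Neural lists had few measured members. Of 25 neural progenitor genes 10 were measured, 5 higher and 5 lower, with a median of -0.12, and 0.11 after GC subtraction. NES, the filament nestin, was at 201 CPM on day 0, 405 on day 5 and 209 on day 11, and SOX3 at 26.3, 10.7 and 13.3 CPM. PAX6, which marks the neural plate, was at 1.32, 1.28 and 101 CPM. Of 4 measured forebrain genes 3 were lower, with EMX1 from 12.8 to 4.99 CPM and ZIC2 from 180 to 94.8 CPM, while OTX2 was at 29.9, 38.3 and 147 CPM. Among 12 measured pan-neuronal genes 9 were lower and 3 higher, with NEFL at 28.6 and 10.5 CPM and ELAVL3, an RNA-binding protein, at 1.70 and 11.1 CPM. No HOX or caudal gene of 19 listed reached 10 CPM on either day.

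The Notch, BMP, TGF-beta and WNT lists had medians above the -0.12 of all genes. Of 18 Notch genes 11 were higher, 6 of them 2-fold or more (5.62% of all genes), and no member was lower by 2-fold (4.33%), with a median of 0.22. DLL1, a ligand, was at 3.65 CPM on day 0, 27.2 on day 5 and 43.6 on day 11, the receptor NOTCH3 at 129, 385 and 200 CPM, NOTCH1 at 110, 244 and 83.9 CPM, and HES4, a target, at 2.61, 12.1 and 14.6 CPM. Of 10 BMP and ID genes 7 were higher, 4 at least 2-fold (5.62% of all genes), with a median of 0.29 and 0.15 without chromosome 20. The ligand BMP4 was at 2.89, 15.6 and 21.8 CPM, ID3, a target, was lower at 92.1 and 52.5 CPM, and ID1 and BMP7 lie on the long arm of 20. Of 18 TGF-beta, activin and NODAL genes 14 were higher (42% of all genes), with a median of 0.18, and 0.34 after GC subtraction. LEFTY1 and LEFTY2, feedback inhibitors of NODAL, were below 10 CPM on both days, LEFTY1 at 7.06 and 2.40 CPM and LEFTY2 at 5.17 and 1.28 CPM. Among 15 WNT genes 10 were higher (42% of all genes), with the receptor FZD7 at 335 and 780 CPM and the secreted inhibitor SFRP1 at 777 and 334 CPM. GLI1, a target of Hedgehog, was at 13.4, 39.7 and 1.51 CPM.

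In lipid metabolism the genes of cholesterol export were higher and those of synthesis were not. Of 11 cholesterol efflux and LXR targets 8 were higher, 3 at least 2-fold (5.62% of all genes), with a median of 0.40 (0.66 after GC subtraction). ABCA1, the cholesterol exporter, was at 18.3 CPM on day 0, 71.7 on day 5 and 32.4 on day 11, SREBF1, the activator of fatty acid synthesis, at 65.3, 189 and 59.4 CPM, and APOE, the lipid carrier, at 529, 1052 and 253 CPM. PLTP lies on the long arm of 20. Of 23 cholesterol synthesis and uptake genes 16 were lower and 7 higher (58% and 42% of all genes), with a median of -0.12, as over all genes. HMGCS1, an early enzyme of the pathway, was at 218 and 121 CPM. ACSL4, which activates polyunsaturated fatty acids, was lower at 153, 46.0 and 113 CPM.

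Long noncoding RNAs that stay in the nucleus were higher. MALAT1 was at 82.6 CPM on day 0, 590 on day 5 and 405 on day 11, and at 397 and 373 CPM with doxycycline, so day 0 was the lowest of the 5 libraries. NEAT1, which builds paraspeckles, was at 13.7, 91.3 and 9.999 CPM, and KCNQ1OT1, an imprinted antisense RNA, at 4.68, 30.3 and 6.84 CPM. All 7 measured members of a list written after values were seen were higher, which is a description of the choice.

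Stress and other metabolic lists lay near the median of all genes, which was -0.12, with 42% of genes higher and 58% lower. Unfolded protein response genes had 11 of 22 higher and a median of 0.02, amino acid and ATF4 genes 15 of 30 and 0.01, and immediate early genes 8 of 16 and -0.01. Heat shock genes had 14 of 21 lower (-0.14), with HSPA8, the constitutive chaperone, at 1259.9 and 512 CPM and HSPA1B, an inducible form with a near-identical copy, at 15.7 and 40.1 CPM. Of 24 oxidative stress and NRF2 genes 20 were lower (-0.21). INSR, the insulin receptor, was at 48.4, 158 and 32.1 CPM, and IGFBP2, a binding protein of IGF, at 1242, 499.6 and 539 CPM.

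The remaining lists are given by counts and medians, beside 42% higher, 58% lower and a median of -0.12 over all genes. Fatty acid synthesis and desaturation genes had 11 of 21 higher (median 0.02), fatty acid oxidation genes 5 of 17 (-0.36), and insulin and IGF genes 8 of 17 (-0.02). Metallothionein and metal transport genes had 4 of 11 higher (-0.36), interferon and antigen presentation genes 10 of 15 (0.17), and mitochondrial transcription and biogenesis genes 6 of 20 (-0.20). Hedgehog genes had 7 of 9 higher (0.34), retinoic acid genes 6 of 11 (0.18), glucocorticoid and thyroid hormone targets 2 of 9 (-0.25), and CDK inhibitors 3 of 4 (0.83). After GC subtraction the median was -0.19 for fatty acid oxidation, -0.10 for metal transport, -0.04 for mitochondrial biogenesis, 0.20 for Hedgehog, 0.07 for retinoic acid and -0.12 for glucocorticoid and thyroid hormone genes. Lineage lists were mostly below the level filter: 3 naive pluripotency genes of 14 were measured (2 higher), 5 neural crest and placode genes of 20 (3 higher), 2 trophoblast and amnion genes of 17 (both higher) and 1 mesendoderm gene of 20 (higher). Of midbrain and isthmus genes 1 of 14 was measured (higher), of proneural factors 1 of 20 (lower), of blood and endothelial genes 2 of 16 (1 higher), of visceral endoderm genes 2 of 16 (both higher), and of replication-dependent histone genes 0 of 18.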

How the data were processed

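Per the labels, RNA libraries (TruSeq v2, 50-cycle single-end reads) were made from H9-derived cells. Per the submitters' processing notes, reads were counted with Subread featureCounts 1.5.0 on GRCh38, and the authors deposited raw counts for 60500 genes. The aligner settings and annotation release are not given in the sources used here. A second deposited table holds a normalized signal for 26282 genes. In 4243 genes with 1000 or more counts in each library, these values divided by counts plus 0.5 take 6 factors (0.839 to 1.19, all values within 0.002) that alternate from gene to gene inside a library. They were used only as an alternative, scaled to their column sums. In 4 tables of the other experiment, 16 per-sample columns were not used.

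Counts were scaled by TMM (edgeR 4.0.16, R 4.3.3) over the 5 libraries of the run and given as CPM. Ratios are log2 of CPM plus 1 on day 5 over day 0, for genes at 10 CPM or more in either library. Ratios stated as fold have no added CPM, with 95% exact binomial counting intervals. A count of 0 was set to a floor of 3 counts. Intervals and floors cover counting error only. Symbols come from the deposited table (26282 identifiers) or GENCODE 29 (30859), and 3357 identifiers have none. GC content and length are those of the longest GENCODE transcript, with a value for 99.8% of measured genes. The ratio and interval code was tested on simulated data. Alternatives were other scalings (library totals, DESeq2 1.42.0, TMM of these 2 libraries, TMM without mitochondrial genes), the normalized values, pseudocounts, level filters and overlapped genes left out.

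Members and the 50 gene lists were chosen with earlier results of these data known, as were 2 lists added later (imprinted genes and nuclear noncoding RNAs). Named genes are POU5F1, FGF2, NEUROG2 and EGFP, the 20 highest and 20 lowest ratios among named genes that are not pseudogenes, up to 6 members per list by ratio and 3 by level, and the 13 mitochondrial mRNAs. Others were named after their values were seen: NANOG, LIN28A, ZFP42, JAG1, BCL2L1, TPX2, VEGFA, LAMA1, PAX6, LEFTY1, LEFTY2, NANP, HM13, SEMA3B, LAYN and the lineage markers (HES5, SOX10, SOX17, CGA, COL1A2, COL3A1, LUM, DCN), the last from a marker list written earlier.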

Additional observations from a re-analysis of the deposited data

How the results depend on the processing

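No paired analysis was possible because each day has 1 library. Of 56 counts of genes under an alternative, 41 stayed within 1.5 times the reported count and 15 did not. At least 4-fold lower genes were 38 with library totals, 43 with the authors' normalized values, 40 with a pseudocount of 0.25 CPM, 8 with 5 CPM, 9 with a filter of 50 CPM and 13 among protein-coding genes, in place of 25. At least 4-fold higher genes were 44 with a pseudocount of 5 CPM and 36 at 50 CPM, in place of 100. At least 2-fold lower genes were 909 with the normalized values, 320 after GC subtraction, 289 with a pseudocount of 5 CPM, 194 at 50 CPM and 330 among protein-coding genes, in place of 516. At least 2-fold higher genes were 262 at 50 CPM and 1174 with no level filter, in place of 670. Filters and protein-coding genes leave fewer genes to count, and for the others the cause was not tested. The share of higher genes at 2-fold was 38.0% with the normalized values and 69.8% after GC subtraction, in place of 56.5%. With library totals the median of all genes shifted by -0.10. No value of a named gene or list past 2-fold changed sign in the alternatives run. Medians of the neural progenitor, neural crest, epithelial, immediate early, fatty acid synthesis, insulin, amino acid, unfolded protein, axon guidance, proneural and imprinted lists changed sign in 2 to 4 alternatives, and those of forebrain, blood and endothelial, Notch, mitosis and nuclear respiratory genes in 1. The median of all genes was 0.01 with no level filter. The chromosome 20, protein-coding and GC alternatives were chosen after seeing the data. With 1 library a side, no spread between wells of these cells is known.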

Other observations

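Genes with imprinted expression, a list of 25 written after values were seen, gave 15 measured genes, of which 8 were higher and 7 lower on day 5, with a median of 0.24 and of -0.12 without the 4 members on chromosome 20. Besides PEG3 and NNAT, L3MBTL1 on the long arm of 20 was at 26.3 CPM on day 0, 104 on day 5 and 36.0 on day 11. MAGEL2, of the Prader-Willi region, was at 10.1, 27.8 and 9.64 CPM, and PWAR6, a noncoding RNA of that region, at 207, 617 and 70.3 CPM. SNRPN, of the same region, was lower at 165, 128 and 67.4 CPM, and MEST, on chromosome 7, was at 172 and 161 CPM.

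Axon guidance genes went both ways, with 10 of 17 measured members higher, 7 lower and a median of 0.06. SEMA6A, a membrane semaphorin, was at 418 CPM on day 0, 1076 on day 5 and 395 on day 11. SEMA3A, a secreted repellent, was at 51.7, 15.4 and 80.4 CPM, and ROBO2, a SLIT receptor, at 16.0, 4.77 and 12.8 CPM.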
